A study of Mus musculus with 2 samples.

Results

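The 10 genes described here mark the epithelium of the thymus, the stromal tissue that instructs and selects developing T cells. They are Foxn1, Aire, Trp63, Psmb11, Prss16, Ctsl, Dll4, Ly75, Epcam and Cldn4, taken as a named list and not picked by a threshold. All 10 of 10 were found in the GENCODE M21 annotation, beside 21755 protein-coding genes on the autosomes and the X chromosome. Chromatin accessibility was measured by DNase-seq, which maps where the nuclease DNase I cuts DNA that is not tightly wrapped in nucleosomes. The tissue was thymus from 2 female B6CASTF1/J mice aged 36 days, hybrids of the strains C57BL/6J and CAST/EiJ, with 1 library from each animal and no treatment named. The labels describe separate animals, but both samples carry the same donor entry, so n = 2 and each SD rest on those descriptions. Both libraries belong to 1 group, so there was no comparison between conditions and no test. The values of both mice are given side by side, as mouse 1 and mouse 2 after the replicate numbers in the labels. Each gene was examined over its body plus 50 kb on either side in mouse genome build mm10.

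As background, the transcription factor FOXN1 switches on the program of thymic epithelial cells, and mice without it have no functional thymus. Cortical epithelial cells supply the Notch ligand that commits progenitors to the T lineage, and they carry special proteases that cut the peptides shown during positive selection. Medullary epithelial cells use AIRE to express genes of other tissues, so that self-reactive T cells can be removed. Epithelial cells are a small minority of the cells of a whole thymus, most of which are thymocytes.

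Genes of thymocytes were open in both libraries. All 13 of 13 listed thymocyte genes, among them those of the T cell receptor complex, were open at a promoter in both mice. The share over all protein-coding genes was 56.6%. The shorter peak list held 59484 peaks in mouse 1 and 72913 peaks in mouse 2, with a median signal of 1.23 and 1.45. Signal is the peak value that the authors deposited. It is treated here as a depth-normalised height, since its scale is not named, and comparisons of level between the mice rest on this. For promoter signal, the median log2 ratio of mouse 2 over mouse 1 was 1.27 over all genes with a promoter peak in both. Each SD of promoter signal below therefore includes a shift between the libraries. Signal values came in whole steps, 157 per unit in mouse 1 and 198 per unit in mouse 2. In bulk tissue, fewer epithelial cells and less accessible DNA in each epithelial cell cannot be told apart. Nor can the cell type that gave a peak be told, so an open promoter may reflect thymocytes or other cells. Every value below is subject to both limits.

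A promoter was counted as open when a peak overlapped the 1000 bp on either side of any annotated start of the gene. Of the 10 genes, 6 were open in mouse 1 and 6 in mouse 2, and these were the same 6 genes, namely Aire, Prss16, Ctsl, Ly75, Epcam and Cldn4. The background was 56.9% of all protein-coding genes in mouse 1, 63.2% in mouse 2 and 56.6% in both mice. The count of the 10 genes therefore lay near that of any gene. Foxn1, Trp63, Psmb11 and Dll4 had no promoter peak in either mouse. In the 6 open genes the median promoter signal was 3.93 in mouse 1 and 7.16 in mouse 2, against 4.94 and 10.4 over all open genes of the same library. The longer, less strict peak list added Dll4 in mouse 2 and left 6 genes open in both mice, with 60.9% of all genes as background.

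**Figure D1:**
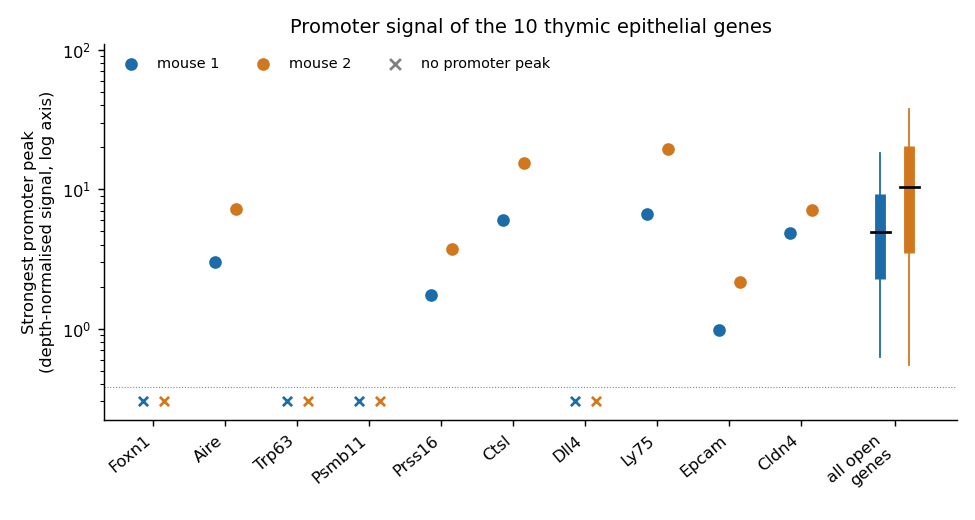
Signal of the strongest promoter peak of each gene (vertical log axis, depth-normalised units) in mouse 1 and mouse 2, with crosses for genes without a promoter peak. At the right, thick bars span the 25th to 75th percentile of all genes with a promoter peak, thin lines the 5th to 95th, and black ticks the medians of 4.94 and 10.4. Ly75 and Ctsl lie highest at 6.59 and 19.4 and at 6.04 and 15.3, and 4 genes have crosses in both mice.

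Accessible DNA was also read from the deposited cut-rate lists, in which stretches of bases carry a false discovery rate (FDR) below 0.05. Touching stretches were merged into regions. A region lay within 1000 bp of a start in 7 of the 10 genes in each mouse, the same 7 in both, against 61.9% of all genes. The seventh gene was Dll4. Footprints, which are short protected stretches inside accessible DNA such as a bound protein leaves, lay there in 6 genes in both mice, against 59.3% of all genes. Foxn1, Trp63 and Psmb11 had neither a region nor a footprint within 1000 bp of any start in either mouse.

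The sequences below show the promoters and the distal peaks on which the results turn. The promoter sequences are from RefSeq on GRCm38 (mm10) and run from 5′ to 3′ on the strand of the gene. Entries matched for 8 of the 10 genes; Trp63 and Prss16 are named without one. Each promoter is cut so that at most 30 bases of untranslated sequence remain, and the peaks printed further on are read from the GRCm38 genome. Capitals mark bases that lie in a footprint in both mice, except at Psmb11, where they mark a match to the FOXN1 core.
Foxn1 promoter (chr11:78386579-78386808, minus strand, closed in both mice, no capitals): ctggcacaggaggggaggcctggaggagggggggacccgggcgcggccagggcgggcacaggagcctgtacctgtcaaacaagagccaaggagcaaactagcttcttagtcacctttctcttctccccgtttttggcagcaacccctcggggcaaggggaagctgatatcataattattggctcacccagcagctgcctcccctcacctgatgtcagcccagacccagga
Psmb11 promoter site (chr14:54625235-54625264, plus strand, closed in both mice): cagcttctccacaGCGTCctcctcctcctc
Dll4 promoter (chr2:119325584-119325813, plus strand, region inside the stretch in mouse 2 alone, no capitals): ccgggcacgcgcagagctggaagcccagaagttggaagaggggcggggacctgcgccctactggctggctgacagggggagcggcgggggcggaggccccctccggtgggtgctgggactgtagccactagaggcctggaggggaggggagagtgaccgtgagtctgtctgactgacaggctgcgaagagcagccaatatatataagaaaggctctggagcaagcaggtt
Aire promoter (chr10:78043581-78043810, minus strand, open in both mice): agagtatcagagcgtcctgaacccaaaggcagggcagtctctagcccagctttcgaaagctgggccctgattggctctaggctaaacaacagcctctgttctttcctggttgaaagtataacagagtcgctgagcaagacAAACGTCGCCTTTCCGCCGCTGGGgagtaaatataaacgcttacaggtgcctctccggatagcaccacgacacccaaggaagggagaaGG
Ly75 promoter (chr2:60383274-60383473, minus strand, open in both mice): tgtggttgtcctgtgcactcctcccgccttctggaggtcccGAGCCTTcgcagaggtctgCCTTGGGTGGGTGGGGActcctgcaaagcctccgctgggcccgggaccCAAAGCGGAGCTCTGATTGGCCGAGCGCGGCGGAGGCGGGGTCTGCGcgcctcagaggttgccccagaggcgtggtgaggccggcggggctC
Cldn4 promoter (chr5:134946905-134947134, minus strand, open in both mice): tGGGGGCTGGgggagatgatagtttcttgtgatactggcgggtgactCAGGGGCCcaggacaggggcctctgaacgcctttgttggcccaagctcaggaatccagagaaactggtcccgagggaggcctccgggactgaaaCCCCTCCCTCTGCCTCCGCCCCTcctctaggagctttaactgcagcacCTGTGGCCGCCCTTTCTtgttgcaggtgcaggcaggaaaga

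Base composition differed among these promoters. The ratio of observed to expected CpG in the promoter window of 300 bases was 0.272 for Foxn1, 0.165 for Psmb11 and 0.595 for Dll4, the closed genes with a sequence. In the open genes it was 0.697 for Aire, 0.545 for Ctsl, 0.634 for Ly75, 0.454 for Epcam and 0.324 for Cldn4. Over 32619 RefSeq promoters split into 3 classes by this ratio, a peak in both mice lay at 7.49% of the lowest class, 32.6% of the middle class and 84.1% of the highest. Psmb11 was the only one of the 8 genes in the lowest class, and Aire the only one in the highest. Cldn4 had an open promoter at a ratio of 0.324, near the 0.272 of Foxn1.

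Among the regulators, Foxn1 (chr11:78357577-78386558, minus strand) had no peak, region or footprint within 5 kb of its start in either mouse. The nearest peak lay 10923 bp away in mouse 1 and 10963 bp away in mouse 2. It touches an exon where the bodies of the upstream neighbours Slc13a2 and Slc13a2os overlap. Mouse 1 had 1.23 there and mouse 2 had 4.09. The gene body was not wholly closed. Inside it, 3 peaks lay near the 3′ end in both mice, given here by their ends in mouse 1. The peak at chr11:78360141-78360360, in an intron, had a signal of 1.45 in mouse 1 and 3.33 in mouse 2. The peak at chr11:78360461-78360780, which touches an exon, had 1.10 and 3.36, and the one at chr11:78358442-78358620 had 0.753 and 1.75. In mouse 1 the intron peak was the strongest of the body, and in mouse 2 it was level with its neighbour. These peaks stood between the 28.4th and 56.7th percentile of all peaks in mouse 1 and between the 56.1st and 73.1st in mouse 2.

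The intron peak and the upstream peak of Foxn1 carried footprints that overlapped between the mice. Of the 160 bases of the intron peak of mouse 2, 50 lay in footprints of both. A stretch of 38 bases inside it was a footprint of identical ends in both mice, and it held the motif GGGCGG of the SP factors, printed here as CCGCCC on the strand of the gene. The upstream peak held 2 shared stretches, and the shorter one held a full match to the NRF1 motif GCGCATGCG. Of all promoter windows of 300 bases, 1.75% hold this motif, and its share over distal peaks or footprints was not computed.
Foxn1 intron peak (chr11:78360161-78360320, minus strand, shown for the shared 38-base footprint): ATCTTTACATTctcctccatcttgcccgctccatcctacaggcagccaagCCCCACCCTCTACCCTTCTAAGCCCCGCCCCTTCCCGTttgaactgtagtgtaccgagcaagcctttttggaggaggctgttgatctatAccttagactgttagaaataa
Foxn1 upstream peak, first shared stretch (chr11:78397614-78397637, minus strand): TCGGAGCCAGGAGAGGGCGCTCCA
Foxn1 upstream peak, second shared stretch (chr11:78397568-78397579, minus strand, shown for the NRF1 match): CTGGCGCATGCG

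Aire (chr10:78030022-78043610, minus strand), the regulator of self-antigen expression in the medulla, had 1 peak at its start in each mouse and none elsewhere in its body. The signal was 3.02 in mouse 1 and 7.18 in mouse 2, with a mean of 5.10 ± 2.94 (SD, n = 2). These values stood at the 32.6th and 39.2nd percentile of open promoters in their library, so Aire was open below the middle of the range in both animals. Regions covered 710 and 765 bp within 1000 bp of the outermost start, with a lowest FDR of 2.14e-31 and 5.77e-86. The peak also lies in the body of Dnmt3l, which is annotated on the opposite strand. The internal starts of Aire, at 1893, 5350 and 5352 bp downstream and all of transcripts that retain an intron, had no peak, region or footprint in either mouse. Of the 230 bases of the printed promoter, 26 lay in footprints of both mice, all but the last 2 of them in a stretch just upstream of the TATAAA at position -29 from the RefSeq start.

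Trp63 (chr16:25683763-25892102, plus strand) encodes p63, a transcription factor of the stem cells of stratified epithelia, and its window was the only one of the 10 without a peak of the shorter list. It spans 308 kb and contains 0 other protein-coding genes. Windows without such a peak in either mouse made up 14.2% of all genes. Among 860 genes with a window of like length (within a tolerance of 0.2 of it), 50, or 5.81%, had no peak, and the median was 6 peaks in mouse 1 and 7 in mouse 2. The gene is read from a start for the long TAp63 forms and from an inner start, 118153 bp downstream, for the short ΔNp63 forms, which are the main forms in epithelia. Both were closed. The nearest peak to the outer start lay 257183 bp away in mouse 1 and 257203 bp away in mouse 2, and the nearest to the inner start 375336 and 303228 bp away. The longer list added only weak entries. Within the gene there was 1 in mouse 1 with a signal of 0.191, and mouse 2 had 2 with 0.212 and 0.237. Mouse 2 also had an entry of 0.101 between genes, 21683 bp upstream of the outer start. None of these overlapped an entry of the other mouse. The window held 5 regions of 45 bp in all in mouse 1 and 6 regions of 389 bp in mouse 2, with 1 footprint in each.

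Among the antigen-processing genes, Psmb11 (chr14:54621433-54629556, plus strand) encodes the catalytic subunit β5t of the thymoproteasome, which in the mouse only cortical thymic epithelial cells are known to make. Its body held no peak, no region and no footprint in either mouse, and both of its annotated starts were closed. The other 6 of 7 genes in the list of catalytic proteasome subunits were open in both mice, against 56.6% of all genes. The nearest peak to Psmb11, 3313 bp from its outer start, was that of Psmb5, the gene of the ordinary subunit that β5t replaces. Psmb5 had a signal of 3.40 in mouse 1 and 7.54 in mouse 2, so an open and a closed gene of the same family lay side by side. The whole window still held 10 peaks in mouse 1 and 17 in mouse 2. The strongest, with 10.8 and 21.3, lay in an intron of 4931414P19Rik, 17833 bp upstream. The FOXN1 core GACGC in the printed site lies at position -62 from the RefSeq start on the opposite strand, and no base of it was in a footprint. This core occurs in 27.3% of all promoter windows, so a match is common.

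Prss16 (chr13:22002173-22009742, minus strand), the thymus-specific serine protease of cortical epithelium, was open only at inner starts. At the outermost starts, including that of a coding transcript, there was no peak, region or footprint in either mouse, and the nearest peak lay 3161 bp away in mouse 1 and 3181 bp away in mouse 2. The peak that counted overlapped the start of a coding transcript 3330 bp downstream. It had 1.75 in mouse 1 and 3.75 in mouse 2, a mean of 2.75 ± 1.41 (SD, n = 2), at the 19.4th and 26.3rd percentile of open promoters. A second peak beside it had 1.42 and 3.64. Each mouse had 13 footprints around this start. Counted at the outermost 5′ end alone, 5 of the 10 genes were open in both mice, against 52.2% of all genes.

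Ctsl (chr13:64359337-64370890, minus strand) encodes cathepsin L, a lysosomal protease that cortical epithelial cells use in antigen processing and that most other cells also make. Its strongest promoter peak had 6.04 in mouse 1 and 15.3 in mouse 2, a mean of 10.7 ± 6.53 (SD, n = 2). These lay at the 58.2nd and 63.3rd percentile of open promoters, on the upper side in both mice. The peak covered the start that 4 transcripts share, 584 bp downstream of the outermost one. A weaker body peak 6444 bp (mouse 1) and 6449 bp (mouse 2) from the outermost start, in an intron, had 0.791 and 1.95.

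Upstream of Ctsl, 3 peaks between genes were stronger in mouse 1 than in mouse 2. The peak 37151 bp (mouse 1) and 37091 bp (mouse 2) from the nearest start had 4.57 in mouse 1 and 1.92 in mouse 2. The peak 39811 and 39831 bp away had 6.05 and 4.96. The peak 44871 and 44891 bp away had 3.52 and 1.53. A weaker peak between them, 41393 bp away in mouse 2, had 0.917 there, and in mouse 1 the longer list alone had an entry, with 0.836. Over the 3 stronger ones the order of the mice was the reverse of that at the Ctsl promoter. A further upstream peak, 36792 bp away and listed in mouse 1 alone, had 1.16. How often peaks away from promoters are stronger in mouse 1 was not computed.

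Dll4 (chr2:119325784-119335962, plus strand) encodes the Notch ligand with which cortical epithelium commits progenitors to the T lineage, and it is also made by endothelial cells. No peak of the shorter list lay within 1000 bp of its starts. Accessible DNA at the main start was scant in mouse 1, with 2 regions of 18 bp in all, the nearer 603 bp away, a lowest FDR of 0.0350 and 0 footprints. Mouse 2 had 4 regions of 299 bp there, a lowest FDR of 0.00428 and 3 footprints. The longer list had entries of 0.645 and 0.771 there in mouse 2 and none in mouse 1. Both entries also lie in the body of the annotated gene Gm14207 and within 1000 bp of a start of it. Under an FDR limit of 0.001 neither mouse had a region at the promoter, so the start of Dll4 lay at the edge of what these libraries call accessible. A peak in the first part of the body, 1387 bp from the start, had 1.5 in mouse 2. It too lay within 1000 bp of a Gm14207 start. In mouse 1 the longer list alone had an entry there, with 0.638. Of 6 listed endothelial genes, 2 were open in both mice, against 56.6% of all genes. Whether endothelial cells had a part in the signal at Dll4 was not tested.

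Stronger peaks stood away from Dll4. The peak 25504 bp (mouse 1) and 25364 bp (mouse 2) upstream, between genes, had 5.93 in mouse 1 and 12.5 in mouse 2, the 89.5th and 91.2nd percentile of all peaks. Of its 240 bases in mouse 2, 93 lay in footprints of both mice. A footprint shared by both mice covered all 8 bases of AGGGGGCG, a core of the motif of the insulator protein CTCF. Of all promoter windows 6.11% hold this core, and its share over distal peaks or footprints was not computed. A second peak, 12197 and 12267 bp downstream of the start, had 3.80 and 7.16.
Dll4 upstream peak (chr2:119300181-119300420, plus strand, shown for the protected CTCF core): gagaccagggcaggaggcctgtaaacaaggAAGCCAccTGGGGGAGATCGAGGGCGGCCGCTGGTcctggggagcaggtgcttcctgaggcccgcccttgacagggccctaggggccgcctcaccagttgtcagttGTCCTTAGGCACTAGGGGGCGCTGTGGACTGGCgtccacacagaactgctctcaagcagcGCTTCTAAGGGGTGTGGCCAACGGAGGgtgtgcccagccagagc

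Among the surface proteins, Ly75 (chr2:60292103-60383303, minus strand) encodes DEC-205, an endocytic receptor of cortical epithelium and of dendritic cells. It had the highest promoter signal of the 10 genes, 6.59 in mouse 1 and 19.4 in mouse 2, with a mean of 13 ± 9.08 (SD, n = 2). These stood at the 61.9th and 73.0th percentile of open promoters. Regions around the outermost start covered 1464 and 1349 bp, with a lowest FDR of 4.92e-84 and 1.78e-189. Of the 200 bases printed, 72 lay in footprints of both mice, the most among the printed promoters. A shared footprint covered all 5 bases of ATTGG at position -77, the CCAAT motif of NFY on the other strand. A peak 1238 bp upstream had 2.65 and 2.35, and the intron peak of the body had 0.779 and 0.499. Of 8 listed myeloid and dendritic cell genes, 3 were open in mouse 1, 2 in mouse 2 and 1 in both. The share of all genes open in both mice was 56.6%. Whether dendritic cells had a part in the signal of Ly75 was not tested.

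Epcam (chr17:87635979-87651129, plus strand), an adhesion protein of most epithelia, had the weakest open promoter. Its strongest promoter peak had 0.976 in mouse 1 and 2.16 in mouse 2, a mean of 1.57 ± 0.838 (SD, n = 2), at the 10.1st and 18.6th percentile of open promoters. This peak lay in an intron 1212 bp from the outermost start and counted through an inner start 703 bp downstream. At the outermost start itself the peak had 0.689 in mouse 1 and 1.04 in mouse 2. The weak signal was spread over several entries. Around the outermost start mouse 1 had 3 and mouse 2 had 2, with regions of 1311 and 1220 bp, and around the inner start 4 and 3, with regions of 1665 and 1613 bp. No base of its RefSeq promoter was in a footprint of both mice. Among only the stronger 50% of all peaks, Epcam was not open in both mice and the other 5 were. The share of all genes under this setting is not given here.

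Cldn4 (chr5:134945119-134946934, minus strand), a claudin of tight junctions that marks precursors of AIRE-positive cells, had a peak over its start with 4.85 in mouse 1 and 7.14 in mouse 2. The mean was 5.99 ± 1.62 (SD, n = 2), and the values stood at the 49.3rd and 39.1st percentile of open promoters. The log2 ratio of mouse 2 over mouse 1 was 0.56 for Cldn4 and between 1.09 (Prss16) and 1.56 (Ly75) for the other 5. Over all genes open in both mice its median was 1.27, with 0.22 and 1.96 as the 5th and 95th percentile, so all 6 lay within the spread of all genes. Aire (1.25) and Ctsl (1.34) lay nearest to that median and Cldn4 farthest from it. Of the 230 bases of the printed promoter, 57 were in footprints of both mice. These covered all 6 bases of both CCGCCC matches, the SP motif on the other strand, at positions -44 and -5.

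**Figure D2:**
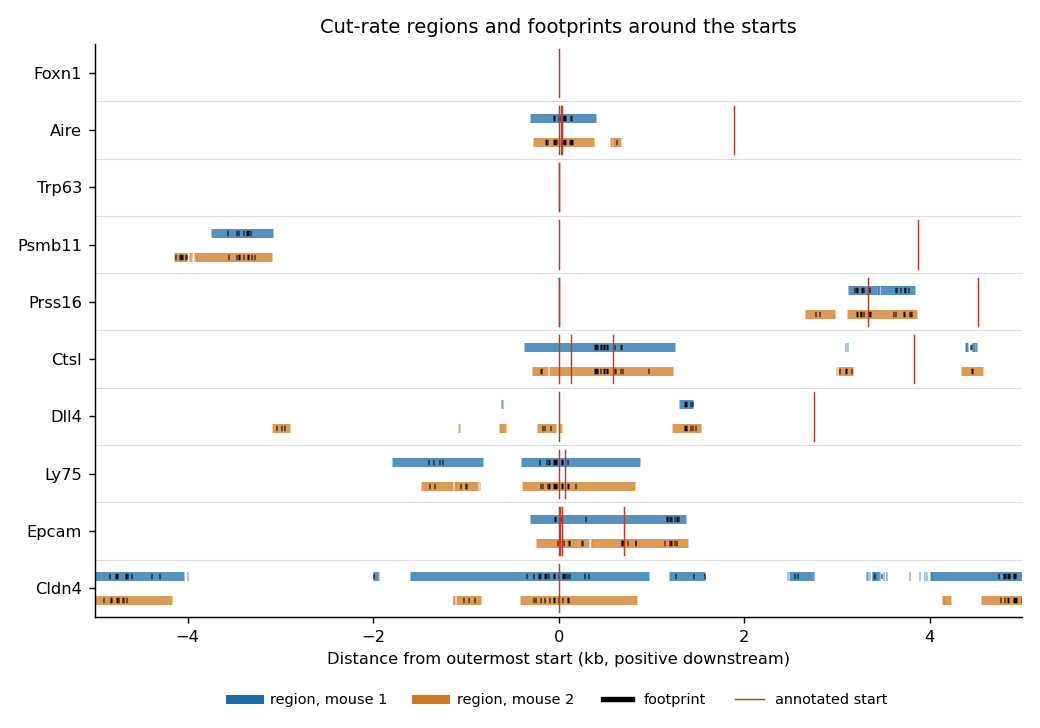
Cut-rate regions (thick bars) and footprints (black) within 5 kb of the outermost start of each gene, with mouse 1 above mouse 2; the horizontal axis is the distance in kb, positive downstream, and red lines mark annotated starts. The rows of Foxn1 and Trp63 are empty in both mice, Prss16 is accessible around an inner start 3330 bp downstream, and the bar upstream of Psmb11 belongs to Psmb5.

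Most of the peaks around the genes lay outside the genes themselves. The 10 windows held 114 peaks in mouse 1 and 123 in mouse 2. The median density was 0.859 and 1.00 peaks per 10 kb, against 0.417 and 0.482 over all protein-coding genes. Over both mice the medians were 0.955 and 0.454. At the genes' own starts lay 15 of the peaks in mouse 1 and 13 in mouse 2, and elsewhere in their own bodies 5 and 6. Starts of other genes held 40 and 45, or 35.1% and 36.6%. The bodies of other genes held 19 and 24, and 35 in each mouse lay between genes. The strongest peak of the window stood at the start of another gene in 6 of the 9 windows that held a peak, in each mouse. These placements were not computed for the windows of all genes. Each window adds 50 kb on either side of the gene, so many peaks fall outside the gene by construction.

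**Figure D3:**
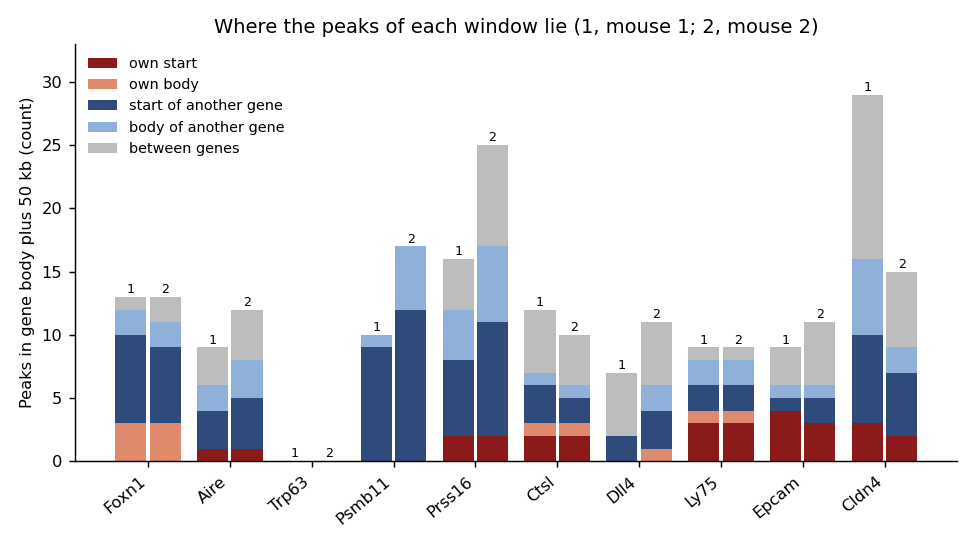
Number of peaks (vertical axis) in the body plus 50 kb of each gene, stacked by where they lie, with the bar of mouse 1 left of the bar of mouse 2. Cldn4 has the most in mouse 1 with 29, Prss16 the most in mouse 2 with 25, and Trp63 has 0 in both.

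Several of these neighbours are broadly used genes. At Foxn1 the strongest peak was that of Pigs, of GPI anchor attachment, with 5.90 in mouse 1 and 18.6 in mouse 2. At Aire it was that of Pfkl, a glycolytic enzyme, with 8.32 and 22.6. At Dll4 it was Vps18, of vesicle sorting, with 6.20 and 20.0, and at Cldn4 it was Mettl27, with 9.43 and 16.2. At Prss16 the strongest peak was that of the histone gene Hist1h4i, with 13.3 and 24.5. Histone genes have near-identical copies, and how reads that fit several copies were placed is not stated in the labels or file headers. Only at Ctsl in mouse 2 and at Ly75 in both mice was the gene's own promoter the strongest peak of its window. In mouse 1 the Ctsl promoter, with 6.04, was level with the strongest peak of its window, with 6.05.

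**Figure D4:**
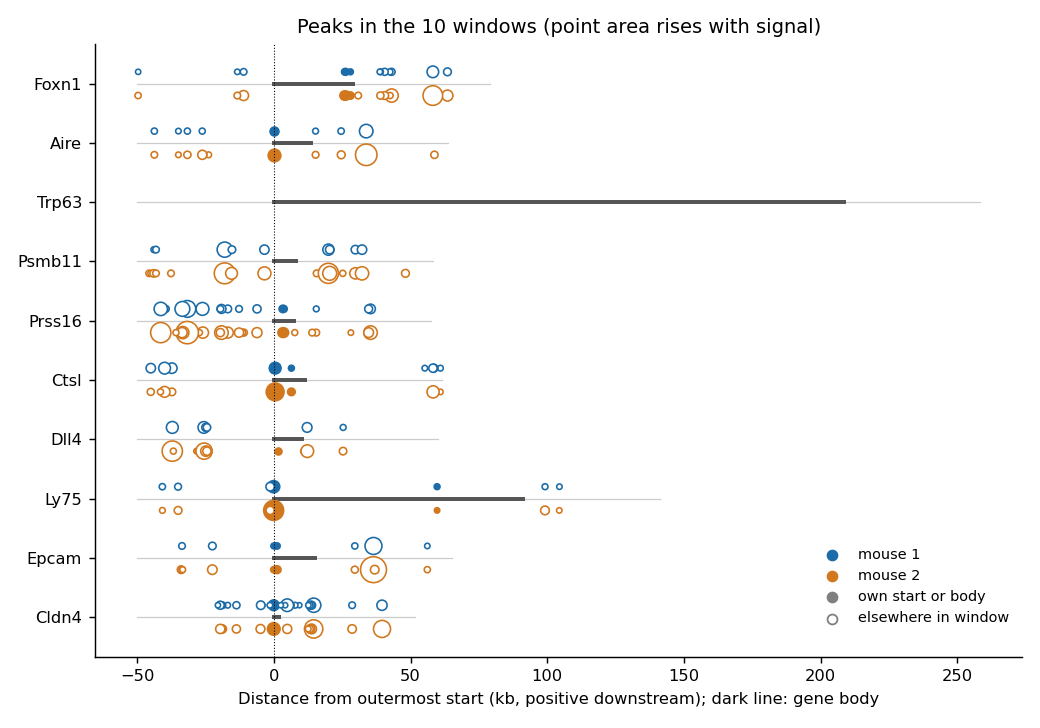
Peaks of the shorter list by distance from the outermost start (horizontal axis, kb, positive downstream), with mouse 1 above mouse 2; point area rises with signal, filled points lie at the gene's own start or body, and dark lines are gene bodies. The largest point is an open one at the start of another gene in 6 windows of each mouse, such as that of Pfkl in the window of Aire.

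The mice shared most of these peaks. In mouse 1, 94 of 114 peaks (82.5%) overlapped a peak of mouse 2, and in mouse 2, 96 of 123 (78.0%) overlapped a peak of mouse 1. Over all peaks the shares were 80.8% and 66.1%. At the genes' own starts and bodies the shared peaks were 17 of 20 in mouse 1 and 17 of 19 in mouse 2. A footprint lay in 87.7% of the window peaks in mouse 1 and 94.3% in mouse 2, against 87.0% and 89.7% of all peaks. The window of Cldn4 varied most, with 29 peaks in mouse 1 and 15 in mouse 2. Between genes, the Cldn4 window had 13 peaks in mouse 1 and 6 in mouse 2, and in the bodies of other genes 6 and 2. The windows of Psmb11 and Prss16 varied the other way, with 10 and 16 peaks in mouse 1 and 17 and 25 in mouse 2. Foxn1 and Ly75 had equal numbers in both mice, 13 and 9.

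Sequence motifs were searched on both strands of the promoter windows of 300 bases. The letters were GACGC for FOXN1, CCAAT for NFY, GGGCGG for SP factors and CCGGAA for ETS factors. E-boxes were searched as CAGCTG and as CACGTG. For CRE the letters were TGACGTCA, for NFKB they were GGGNNTTCC and for AP1 they were TGANTCA. The search also covered TGTGGTT for RUNX factors, AGATAA for GATA factors and TGTTTAC for FOX factors. It further covered TGGGAA for RBPJ, TTCAAAG for TCF factors, TATAAA for the TATA box, GCGCATGCG for NRF1 and AGGGGGCG for CTCF. The p63 pattern was a pair of CATG with 6 bases between. The CTCF core was added after the peak sequences had been seen. Its letters overlap those of the SP motif, and the NRF1 motif contains a CATG of the p63 pattern. CCAAT occurred in 5 of the 8 promoters (Foxn1, Aire, Psmb11, Dll4 and Ly75), against 37.6% of all promoters. GGGCGG occurred in 4 (Foxn1, Dll4, Epcam and Cldn4), against 35.9%. The FOXN1 core occurred in 2, Aire and Psmb11, against 27.3%. The E-boxes CAGCTG and CACGTG occurred in 3 and 2, against 16.4% and 7.20%. TATAAA occurred in Aire alone (13.7% of all promoters), TGANTCA in Cldn4 alone (7.85%) and TGTGGTT in Ly75 alone (5.29%). The other 10 motifs had no match in the 8 windows, which says only that these letters are not in them. They occurred in 1.80% (CRE), 15.0% (ETS), 11.2% (GATA), 3.67% (FOX), 25.4% (RBPJ), 5.85% (NFKB), 1.75% (NRF1), 5.14% (TCF), 0.714% (p63) and 6.11% (CTCF) of all promoters.

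Of the 10 genes 60.0% were open in both mice, and of 28 other genes of thymic epithelium 28.6%; this difference was not tested. Of the 28, 8 were open at a promoter in mouse 1 and 16 in mouse 2, with 8 in both and 12 in neither. The background, as given above, is 56.9% in mouse 1, 63.2% in mouse 2 and 56.6% in both. The longer list gave 13 of 28 in both mice, against 60.9% of all genes. The 28 genes had a median density over both mice of 0.227 peaks per 10 kb, against 0.454 over all genes. Relb and Ccl25 had the highest mean promoter signal. Relb, an NF-κB subunit used by many immune cells, had 17.7 in mouse 1 and 20.9 in mouse 2. Ccl25, a chemokine of cortical epithelium that attracts progenitors, had 6.39 and 20.5. Only Relb and Ccl25 exceeded the median of open genes in both mice.

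The lowest 3 of the 8 were Enpep, an aminopeptidase, with 0.747 in mouse 1 and 0.453 in mouse 2, Eya1, a transcriptional coactivator of thymus formation, with 0.262 and 1.04, and Cd40, a receptor of medullary maturation, with 0.530 and 0.867. The 12 without a promoter peak in either mouse included the keratin genes Krt5, Krt14 and Krt8 and the claudin gene Cldn3. The chemokine genes Cxcl12, Ccl21a and Ccl19 were among them. So were the transcription factor genes Fezf2, Pax1 and Spib and the signal genes Kitl and Wnt4.

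**Figure D5:**
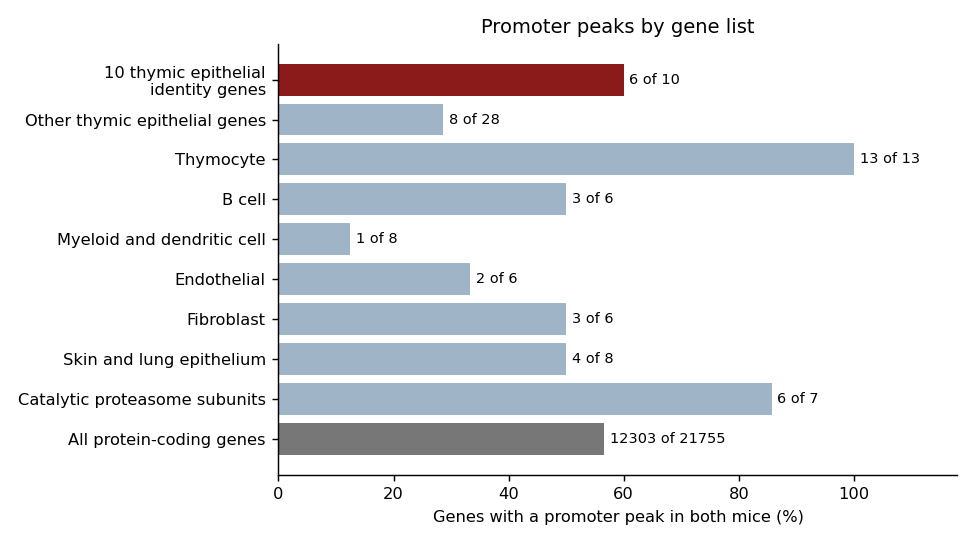
Share of genes with a promoter peak in both mice (horizontal axis, percent) for the 10 genes, for 8 other gene lists and for all protein-coding genes, with counts beside the bars. The 10 genes at 6 of 10 lie near all genes at 56.6%, the other thymic epithelial genes lie at 8 of 28 and the thymocyte genes at 13 of 13.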

How the data were processed

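DNase-seq files of 2 thymus libraries, 1 per mouse, were used as deposited, with mm10 as the build per the labels. The authors derived peaks and cut rates library by library from filtered alignments, and footprints from these alignments and cut rates, per the file listing in the deposit. For the aligner and the callers, names and settings were not given in the sources used here. The peak signal that the authors deposited is treated as a depth-normalised height, with steps of 0.00638 and 0.00504; its scale is not named, and 1 unit holds 157 and 198 steps. The p-value column that the authors deposited with the cut rates is an FDR listed below 0.05. Deposited footprints carry 1 constant value in a column of other content, so their positions alone were used.

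Computed here were overlaps of at least 1 bp with GENCODE M21 genes, in Python 3.11.15 with numpy 2.4.6 and pandas 2.3.3, tested on simulated data against bedtools 2.31.1. The shorter of the 2 peak lists of a library was used throughout, with the longer as an alternative. Percentiles are ranks within a library. Other alternatives were a strict FDR limit, other promoter widths and flanks, and leaving out a mouse. Interval counts give no counting error, and 2 mice limit the precision of each SD. All 10 genes, the 3 highest, 3 lowest and closed genes of the second list, and neighbours with the strongest peak of a window were named by rule; other peaks and neighbours were named after their values were seen. Some items that the rule names are not reported here. The genes and lists were chosen with earlier results of these data known.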

Additional observations from a re-analysis of the deposited data

How the results depend on the processing

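Across 31 alternatives, 22 left a value within 1.5 times of the count or within 1 SD between mice, and 9 moved it. A reversal was not scored. For the median density, leaving out 1 of 2 mice could hardly exceed 1 SD between them. The number of the 10 genes open in both mice stayed between 5 and 6 under every alternative run. With a window of 2500 bp it was 6 of 10, against 59.0% of all genes. Regions at the promoter were found in 6 of 10 genes at an FDR below 0.001, with Dll4 lost. The share of all genes under this limit is not given here. The count of the other thymic epithelial genes moved more, to 13 of 28 under the longer peak list, against 60.9% of all genes. Leaving out a mouse counts the other mouse alone. This gave 8 of 28 in mouse 1 and 16 of 28 in mouse 2, against 56.9% and 63.2% of all genes. The median density of the windows was 1.44 per 10 kb with the longer list and 0.586 with the stronger 50% of peaks, and 0.859 to 1.00 without either mouse. The mean number of peaks per mouse, 118.5, became 71.5 with the stronger 50%, 38 with a flank of 10 kb and 16.5 in the gene bodies alone, by construction, and 114 to 123 without either mouse. The mean share of peaks found in both mice, 80.3%, was 61.7% with a reciprocal overlap of 50% and 71.3% with the longer list, and the cause of the second was not tested. Merging overlapping entries, an alternative chosen after seeing the data, gave 117 peaks. No paired analysis was possible because both libraries belong to 1 group. The promoter of Dll4 had entries in the longer list of mouse 2 alone, at the 45.9th and 52.2nd percentile of that list. Absence of a peak means only that none was listed, and the part of read depth was not tested.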

Other observations

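Genes listed for B cells, for fibroblasts and for skin and lung epithelium were open at shares close to the 56.6% of all genes. Lower shares were found for endothelial genes (2 of 6, 33.3%) and for myeloid and dendritic cell genes (1 of 8, 12.5%). Of 6 B cell genes 3 were open in both mice, with a median density of 0.724 peaks per 10 kb. Of 6 fibroblast genes 3 were open in both mice, at a density of 0.148. Over all genes the median density was 0.454. Of 8 genes listed for skin and lung epithelium, 4 were open in both mice, namely Krt1, Krt10, Cdh1 and Dsp. Whether cells of the thymus also use these genes was not tested, so the list is no contrast from outside the thymus. Over the 4 open ones the median signal at promoters was 0.555 (mouse 1) and 2.21 (mouse 2). That level was below the 3.93 and 7.16 of the open genes among the 10. The peak at the far upstream end of the Foxn1 window, 49501 bp (mouse 1) and 49523 bp (mouse 2) from the start, was weak, with 0.421 in mouse 1 and 0.998 in mouse 2. All 8 bases of a CTCF core in it lay in a footprint of both mice.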
